A study of Bos taurus with 43 samples.

Results

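The genes described here encode the subunits of the proteasome and the proteins that assemble, activate or inhibit it. They were taken from the array annotation as every probe that is not a control and whose gene name starts with PSMA to PSMG or whose description contains the word proteasome, which gave 49 probes for 45 genes out of 21475 probes for 19801 gene symbols. A gene name selected 22 of the probes and the description alone selected the other 27, and PSMA7, PSMD12, PSME1 and PSME3 have 2 probes each. No probe for a PSMG assembly chaperone was found by this rule.

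RNA of the biceps brachii, a muscle of the forelimb, was taken from 43 male cattle and hybridized in a single colour to Agilent bovine arrays, 1 animal per array, in a study of illicit corticosteroid use in beef production. The 4 positive animals (S21, S54, S56 and S57) are labelled as suspected of corticosteroid treatment and were, by the study's methods, positive both at thymus histology and at mass spectrometry of urine, with the dose and the duration of any treatment unknown. The 21 unknown animals were commercial beef cattle, mostly Charolais, Limousine or their crosses, sampled at the slaughterhouse with the positive animals and with no known treatment status, so that treated animals may be among them. The negative controls came from earlier controlled experiments and were 5 cross-breed bulls (Charolais × Limousine, K7, K8, K10, K11 and K12) and 13 Holstein bulls (C17 to C48). Ages overlapped between the groups, the cross-breed bulls being of a single age and the Holstein bulls of that age or younger. A principal component plot of the study placed 10 of the unknown animals beside the positive ones (set B) and 11 beside the cross-breed controls (set A). These sets were read from that plot, which was drawn from the same arrays, so they are described here without a test.

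The proteasome is the main ATP-dependent protease of the cytosol and nucleus and degrades proteins that carry chains of ubiquitin. Its core particle is a barrel of stacked rings, with alpha subunits that gate the entrance and beta subunits that hold the proteolytic sites, and it is capped by a regulatory particle whose ATPase ring unfolds the substrate and whose non-ATPase subunits bind ubiquitin and remove it. In skeletal muscle this pathway breaks down much of the myofibrillar protein during wasting, and glucocorticoids are a known trigger of muscle wasting.

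All values below are log2 signals after cyclic loess normalization across the 43 arrays. A signal says how a probe compares between arrays, not how the transcripts of different genes compare with each other. Differences were tested with limma over the 16354 probes that passed the filter on dim signals, and a probe was called at a Benjamini-Hochberg adjusted p under 0.05. All 49 proteasome probes passed the filter, and none was saturated on any array. Of these, 45 were well above background on all 43 arrays, against 52.2% of all probes tested. The other 4 were probes of PSMA8 (well above background on 27 arrays), PSMB1 (40), PSME1 (A_73_111174, 42) and PSME3 (A_73_104476, 41).

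Some arrays and animals stood apart. The cross-breed arrays were read on slides, days and scanners that no other group used. Among them K7 and K8 had another scanner and another software version than K10, K11 and K12. Hence group and batch cannot be told apart in either comparison with the cross-breed bulls. The share of spots well above background was 74.95% to 89.4% on the positive arrays, 62.92% to 73.65% on the cross-breed arrays and 62.34% to 73.22% on the Holstein arrays, while among the unknown animals it ran from 40.21% on array 79 to 97.29% on array 50. The bright spike-in controls, RNAs added in known amounts, averaged 7.76 to 8.43 on 5 arrays of set B (29, 39, 52, 61 and 76) and 11.3 to 13.4 on all other arrays (log2 signal). The Y-linked gene ZFY, in animals reported as male, was 2.84 to 4.53 in set A and 5.47 to 7.26 in all other sets, without overlap. HOXA9, a homeobox gene that marks position along the limb and trunk, was 10.60 to 11.47 in the cross-breed and 10.30 to 11.67 in the Holstein bulls (probe A_73_119831), but 1.98 to 4.22 in the positive animals, 1.77 to 5.74 in set B and 2.64 to 11.37 in set A. On another HOXA9 probe (A_73_101190) the difference was smaller, at 6.77 to 7.47 in the positive and 8.06 to 8.98 in the cross-breed animals. HOXC6 ran the other way, at 10.22 to 10.49 in the positive animals and 3.18 to 4.77 in the cross-breed bulls. The part of these differences between animals in the results below was not tested.

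The muscle fibre genes were present at high signal in every set, with the troponin gene TNNC1 the brightest. The log2 of their summed signal, which the brightest genes dominate, was 20.84 to 21.19 in the positive, 20.40 to 21.23 in the cross-breed and 21.35 to 21.65 in the Holstein animals. Of 18 muscle fibre probes tested, 7 were higher and 8 lower in the positive than in the cross-breed animals (of all probes, 25.5% and 26.2%), among them the fast-fibre gene MYBPC2, lower by 6.01 (SE 0.76) on the log2 scale, and the slow-fibre gene MYL3, higher by 2.09 (SE 0.29). In such bulk tissue, a smaller number of cells of a type and less RNA per cell cannot be told apart, and the part of fibre type in the proteasome values was not tested.

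Across the 43 arrays the proteasome probes varied less than most. Their median standard deviation (SD) was 0.39, against 0.62 over all probes tested. The steadiest were PSMC5, an ATPase of the regulatory particle (SD 0.15), and PSMB5, a catalytic beta subunit (SD 0.16). The most variable were the inducible beta subunit PSMB10 (SD 1.0), the alpha subunit PSMA8 (0.97), the dimmer probe of the activator PSME1 (0.92) and the alpha subunit PSMA3 (0.73).

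**Figure D1:**
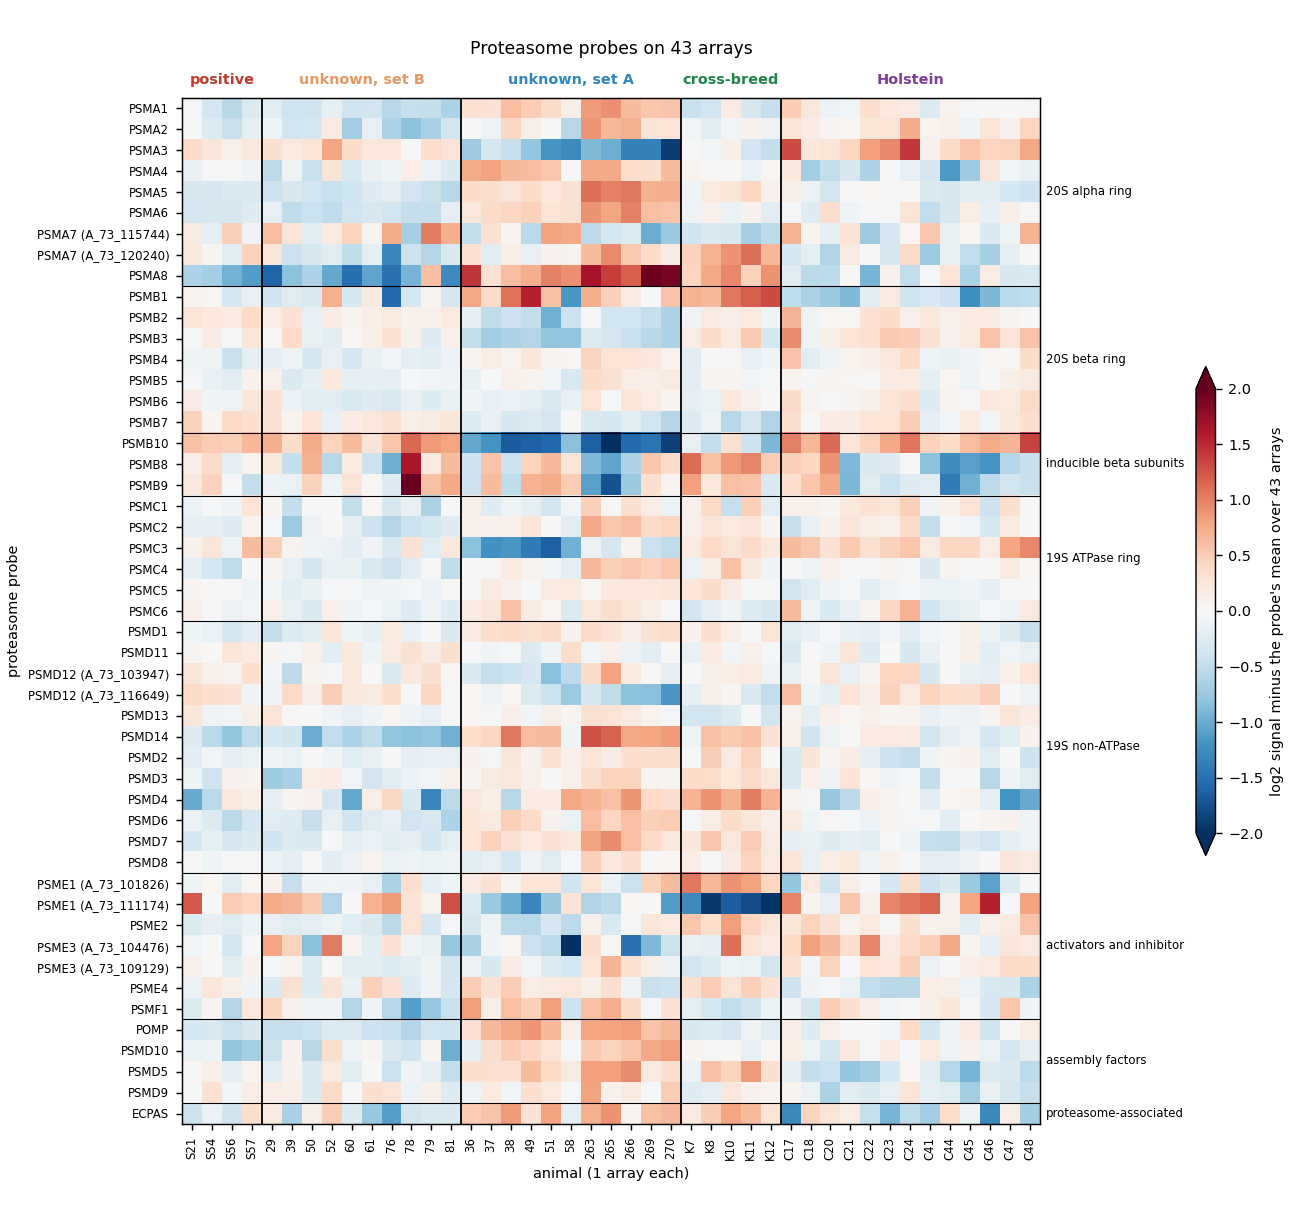
Log2 signal of each of the 49 proteasome probes (rows, grouped by particle) on each of the 43 arrays (columns, grouped by set), shown as the difference from that probe's mean over all arrays on a colour scale from blue (lower) to red (higher). PSMB10 is high in the positive animals and set B and low in set A, and most alpha subunits, PSMD14 and POMP show the opposite pattern over sets B and A.

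The first question was whether the positive animals differed from the untreated cross-breed bulls. Against the cross-breed controls, 4 of 49 proteasome probes (8.16%) were higher in the positive animals, where 25.5% of all probes tested were higher, and 14 (28.6%) were lower, where 26.2% of all probes were lower. In either direction 51.7% of all probes were called. Of the 4, PSMB10 and PSMB7 are catalytic subunits, and of the 14, 6 belong to non-ATPase subunits of the regulatory particle. The low count of higher probes depended on the normalization. With pairwise cyclic loess (all pairs of arrays in turn) it rose by over 1.5 times, to near the share of all probes there (21.4%). The lower count stayed close to 14, where 36.8% of all probes were lower. Both counts are given in the section on processing. The median log2 change was -0.18 over the proteasome probes and -0.03 over all probes. With a fold change of at least 2 added, 1 probe was higher and 3 were lower, against 14.4% and 13.8% of all probes. The ranges of the 2 groups did not overlap for 20 probes, 4 above and 16 below, where 21.7% of all probes were above and 21.6% below (43.3% together). Of the 18 calls, 6 held under every alternative processing tried, those of PSMB7, PSME1 (A_73_111174), PSMA8, PSMB1, PSMD4 and PSMD7, although the size of the change moved by over 1.5 times for PSME1, PSMA8, PSMB1 and PSMD7. Of these 6 probes, PSME1 (A_73_111174), PSMA8 and PSMB1 were not well above background on all 43 arrays. The brighter PSME1 probe went the other way, with a change of -0.82.

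The second comparison set the 2 groups of untreated bulls, which differ in breed, against each other. Of 49 proteasome probes, 10 (20.4%) were higher in the Holstein than in the cross-breed bulls, against 23.9% of all probes, and 16 (32.7%) were lower, against 24.4%, with 48.4% of all probes called in either direction. The higher ones included PSMB10, PSMB7 and the alpha subunit PSMA3, and the lower ones PSMB1, PSMB8, PSMD4 and PSMD14. The median log2 change was -0.10 over the proteasome probes and 0.01 over all probes. With a fold change of at least 2, 2 probes were higher and 5 lower, against 10.9% and 9.69% of all probes. Ranges did not overlap for 1 probe above and 7 below, against 8.1% and 8.08% (16.2% together). Both comparisons use the same 5 cross-breed arrays, so their values are given side by side and not as separate evidence.

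**Figure D2:**
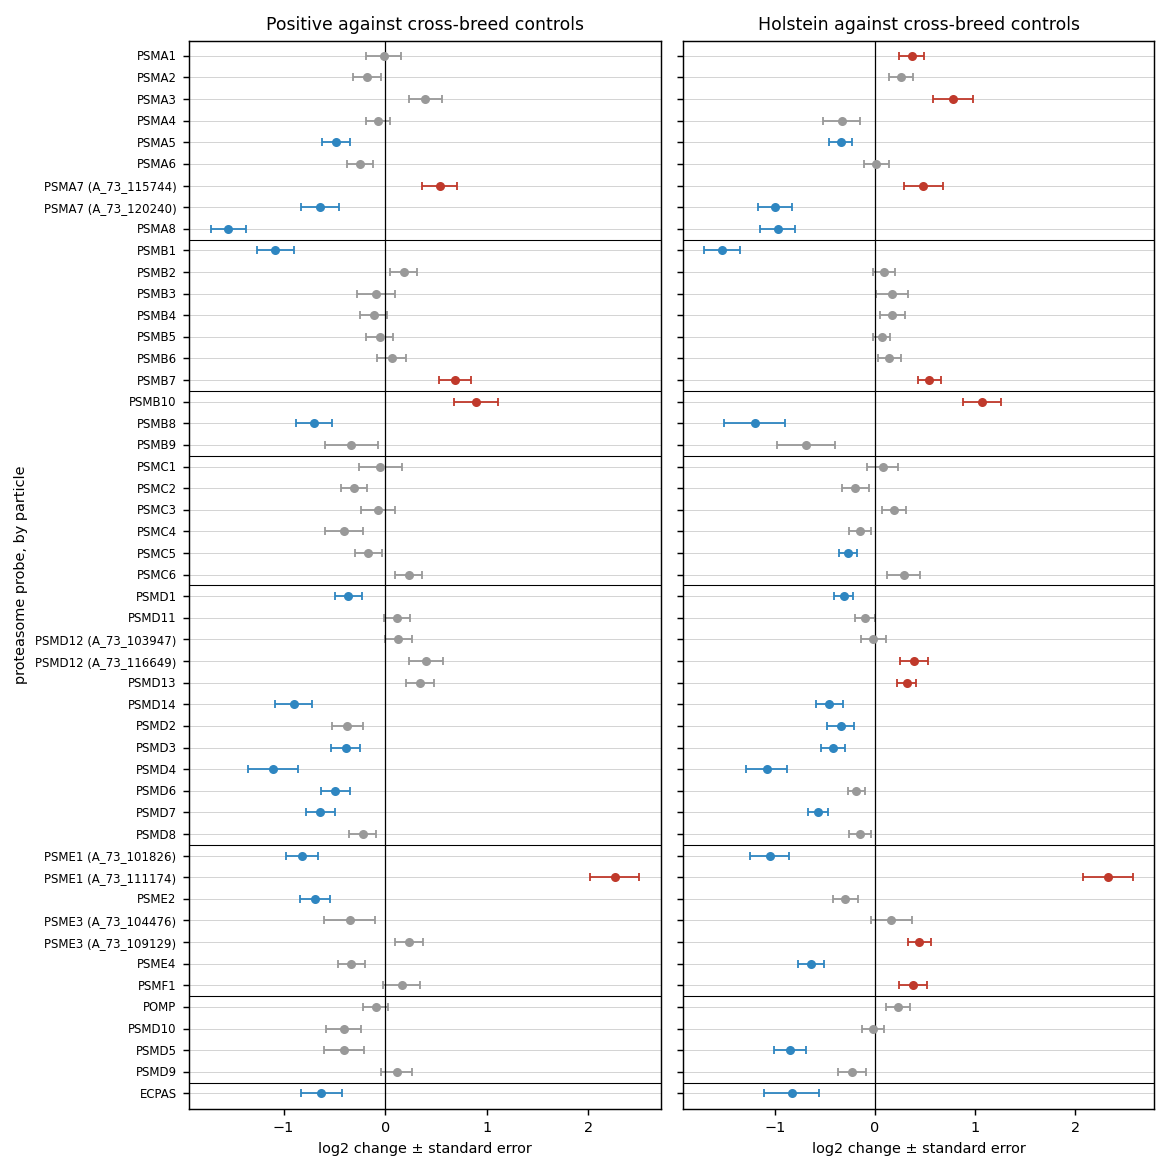
Log2 change of each proteasome probe with its standard error (points and bars) in the positive animals (left) and the Holstein bulls (right) against the same 5 cross-breed controls, with probes higher at an adjusted p under 0.05 in red, lower in blue and the rest in grey. On both sides the dimmer PSME1 probe lies farthest to the right, at 2.26 and 2.33, and PSMB1, PSMA8 and PSMD4 lie on the left.

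In the alpha ring of the core particle, 1 of 9 probes was higher and 3 were lower in the positive than in the cross-breed animals, where 25.5% and 26.2% of all probes were, and 3 were higher and 3 lower in the Holstein bulls (all probes 23.9% and 24.4%). PSMA5 measured 13.39, 13.38, 13.41 and 13.40 in S21, S54, S56 and S57, and 13.62, 13.90, 13.96, 14.13 and 13.79 in K7, K8, K10, K11 and K12. All 4 positive animals lay below all 5 cross-breed bulls, and they lay close to each other. The change was -0.48 (SE 0.14, limma adjusted p 0.0142) in the positive animals and -0.34 (SE 0.11, adjusted p 0.0171) in the Holstein bulls, which ran from 13.29 through a median of 13.48 to 13.83 and overlapped the controls. The first call was lost with pairwise cyclic loess (all pairs of arrays in turn; -0.15, adjusted p 0.451), 75th percentile scaling (0.151), normexp (0.0565) and a common fit of all 43 arrays (0.184), and the second with 75th percentile scaling, in the common fit (0.219) and without K11 (0.0643).

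PSMA8 encodes an alternative alpha subunit best known from the testis and was close to background here. It measured 3.84, 3.77, 3.5 and 3.34 in the 4 positive animals, 3 of which were well above background, and 4.88, 5.21, 5.42, 4.92 and 5.35 in the cross-breed bulls. The groups did not overlap, and the change was -1.54 (SE 0.17, adjusted p 5.99e-05). Among the Holstein bulls it ran from 3.53 through 4.15 to 4.72, with 6 of 13 arrays well above background and all of them below the cross-breed bulls (-0.97, SE 0.17, adjusted p 0.000208), a call that was lost in a common fit of all 43 arrays (adjusted p 0.0998). So near to background the size of these changes cannot be read, and with normexp background correction they were -0.41 and -0.33.

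PSMA7 is the constitutive counterpart of PSMA8, and its 2 probes went opposite ways. Probe A_73_115744 measured 7.11, 6.72, 7.41 and 6.85 in the positive and 6.54, 6.64, 6.60, 6.26 and 6.40 in the cross-breed animals, a change of 0.54 (SE 0.17, adjusted p 0.0231). Probe A_73_120240 measured 10.36, 10.19, 9.90 and 10.60 in the positive and 10.61, 10.84, 11.04, 11.24 and 10.80 in the cross-breed animals, a change of -0.64 (SE 0.19, adjusted p 0.0148), a call that was lost in the common fit (0.077). Neither probe's groups overlapped, although S57 and K7 all but met on the second. The array describes this second probe as PSMA8 while its accession belongs to PSMA7, so which of the paralogs it reads is uncertain. The Holstein bulls split the probes in the same way, by 0.48 (SE 0.19, adjusted p 0.0465) and by -1.0 (SE 0.17, adjusted p 0.000104). In the positive animals the change of A_73_115744 ran from 0.26 with normexp to 1.68 with pairwise cyclic loess, and normexp, quantile normalization and the common fit ended its call (adjusted p 0.0666, 0.137 and 0.216). This call was also lost without S21 or S56 (adjusted p 0.0597 and 0.07), and that in the Holstein bulls without any single cross-breed bull (0.058 to 0.114). In the Holstein bulls the change was 0.25 with 75th percentile scaling (adjusted p 0.292), and the call was also lost with quantile normalization (0.172), in the common fit (0.137) and with no filter on dim probes (0.0558).

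PSMA3, whose C-terminal tail is known to bind client proteins, was higher in the Holstein bulls, where it ran from 11.32 through 11.68 to 12.64. The cross-breed bulls were at 11.24, 11.18, 11.35, 10.85 and 10.76, so that only K10 reached into the Holstein range. The change was 0.78 (SE 0.20, adjusted p 0.00341). The positive animals, at 11.61, 11.47, 11.34 and 11.45, changed by 0.39 (SE 0.16) and did not pass the test (adjusted p 0.0622). PSMA3 did pass there under 3 of 20 alternatives (lowest adjusted p 0.00658). PSMA1 was higher in the Holstein bulls by 0.37 (SE 0.13, adjusted p 0.0239), but not without K7, K8 or K12 (adjusted p 0.0682, 0.0583 and 0.0711) or in the common fit (0.172). The remaining alpha subunits PSMA2, PSMA4 and PSMA6 passed the test in neither comparison. PSMA2 did pass under 1 alternative in each (lowest adjusted p 0.0488 and 0.0490). In the positive animals PSMA4 and PSMA1, at -0.07 and -0.02, turned sign under some alternatives. They reached up to 0.41 and 0.47, with lowest adjusted p of 0.0285 and 0.0387.

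In the constitutive beta ring, 1 of 7 probes was higher and 1 lower in each comparison, and these were the same genes, PSMB7 and PSMB1. Of all probes 25.5% and 26.2% were called in the positive and 23.9% and 24.4% in the Holstein animals. PSMB1 is a non-catalytic beta subunit. It measured 5.53, 5.50, 5.10 and 5.29 in the positive animals and 6.15, 6.11, 6.5, 6.65 and 6.77 in the cross-breed bulls, without overlap. The change was -1.08 (SE 0.18, adjusted p 0.000715), and in the Holstein bulls, which ran from 4.24 through 4.94 to 5.64, it was -1.53 (SE 0.18, adjusted p 2.7e-06), with 12 of 13 arrays well above background. With normexp the changes were -0.60 and -0.76. No Holstein bull reached the lowest cross-breed bull.

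The constitutive proteolytic sites lie on PSMB5 (chymotrypsin-like), PSMB6 (caspase-like) and PSMB7 (trypsin-like). PSMB7 measured 15.41, 15, 15.35 and 15.27 in the positive animals against 14.67, 14.85, 14.38, 14.60 and 14.34 in the cross-breed bulls, so every positive animal was above every cross-breed bull. The change was 0.69 (SE 0.16, adjusted p 0.00418), or 1.61-fold. Holstein values of PSMB7 ran from 14.76 through 15.13 to 15.44, overlapping with K8 only, and the change was 0.54 (SE 0.12, adjusted p 0.000977). PSMB5 did not pass the test in either comparison, with changes of -0.05 (SE 0.13) and 0.07 (SE 0.09), and neither did PSMB6, with 0.07 (SE 0.14) and 0.15 (SE 0.11). PSMB2, PSMB3 and PSMB4 did not pass either. Under 1 of 20 alternatives PSMB2 did pass in the positive animals, where its change of 0.18 reached up to 0.67 (lowest adjusted p 0.00427).

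**Figure D3:**
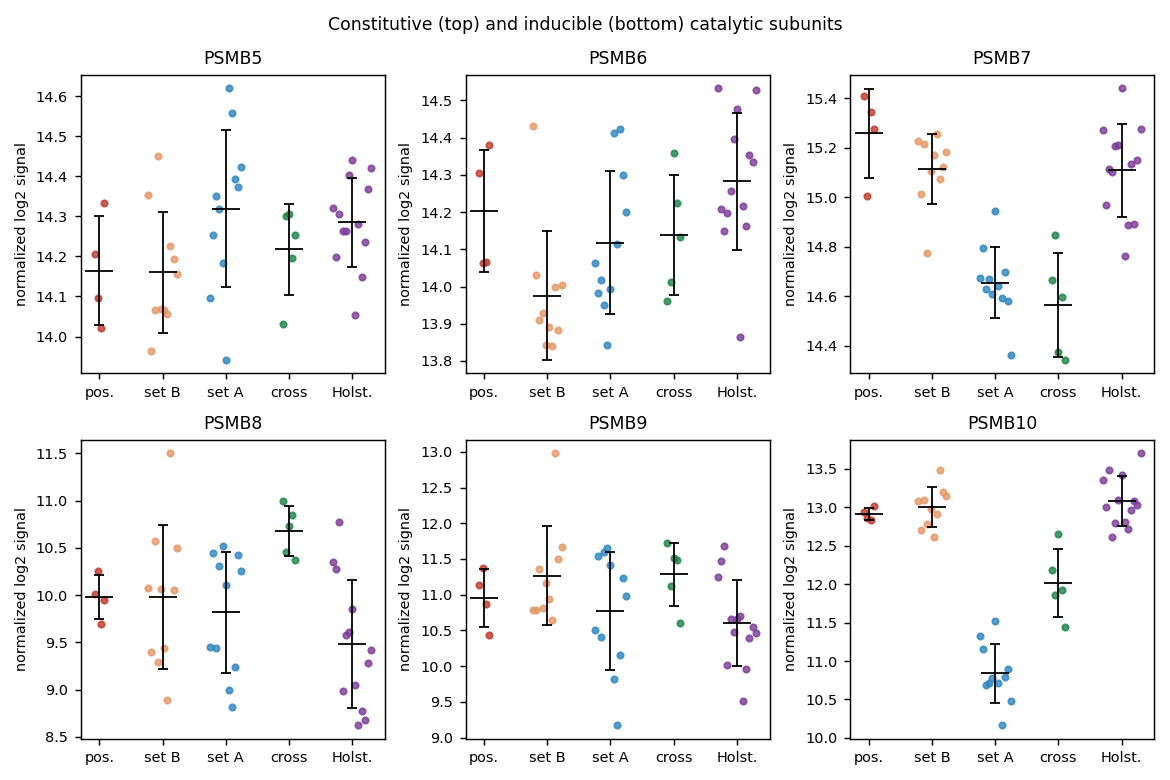
Normalized log2 signal of the 3 constitutive (top) and 3 inducible (bottom) catalytic subunits on each array (points) by set, with the mean and SD of the set (bars); each panel has its own vertical axis. The ranges of PSMB5 overlap in all 5 sets, the means of PSMB7 are lower in set A and the cross-breed bulls than elsewhere, and PSMB10 is lowest in set A.

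PSMB8, PSMB9 and PSMB10 are the inducible catalytic subunits, which replace the constitutive ones in the immunoproteasome, and interferon is their classical inducer. The 3 did not move together. PSMB10 measured 12.94, 12.86, 12.83 and 13.01 in the positive animals and 12.19, 11.85, 12.65, 11.93 and 11.45 in the cross-breed bulls. The positive animals were all higher and closely grouped, and the change was 0.90 (SE 0.22, adjusted p 0.00621), or 1.86-fold. Holstein values of PSMB10 ran from 12.61 through 13.03 to 13.70, and the change was 1.07 (SE 0.19, adjusted p 0.000169), with an overlap at K10. With all 43 arrays in a common fit the PSMB10 calls were lost, at adjusted p 0.223 and 0.0512, and pairwise cyclic loess gave 1.53 for the positive animals.

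PSMB8 went the other way. It measured 10.02, 10.26, 9.69 and 9.94 in the positive and 10.99, 10.46, 10.73, 10.85 and 10.37 in the cross-breed animals, without overlap. The change was -0.70 (SE 0.18, adjusted p 0.00766), and the common fit ended this call too, at adjusted p 0.196. The Holstein bulls ran widely, from 8.62 (C44) through 9.42 to 10.77 (C20), and the change was -1.20 (SE 0.30, adjusted p 0.0035). PSMB9 did not pass the test in either comparison, with changes of -0.33 (SE 0.26, adjusted p 0.309) and -0.69 (SE 0.29, adjusted p 0.0538). In the Holstein bulls it did pass under 4 of 16 alternatives (lowest adjusted p 0.0293).

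Among the interferon response and antigen presentation genes, no call was an increase. Of 19 probes tested, 0 were higher and 7 lower in the positive animals than in the cross-breed bulls, with a median of -0.79, and in the Holstein bulls 0 were higher and 17 lower, with a median of -1.19, where 26.2% and 24.4% of all probes were lower. CIITA, the activator of class II antigen presentation, measured 10.02, 10.61, 10.52 and 9.93 in the positive and 13.36, 12.91, 12.45, 12.36 and 12.20 in the cross-breed animals. The groups did not overlap. CIITA changed by -2.39 (SE 0.26, adjusted p 4.62e-05) in the positive animals, and ISG15, a ubiquitin-like protein induced by interferon, changed by -2.91 (SE 0.68, adjusted p 0.00197) in the Holstein bulls. The brightest gene of the list, B2M, was 15.12 to 15.97 in the positive, 15.28 to 15.90 in the cross-breed and 15.15 to 16.27 in the Holstein animals, which overlapped.

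Leukocytes, which are rich in the inducible subunits, were followed through their markers, and these were mixed. Of 16 tested, 3 were higher and 4 lower in the positive than in the cross-breed animals, near or below the shares of all probes (25.5% and 26.2%), the lower ones including CD8A of cytotoxic T cells (-1.57, SE 0.28) and the integrin ITGB2 (-1.40, SE 0.31) and the higher ones CD3D, which was well above background on 1 of 5 cross-breed arrays. Of the same markers 2 were higher and 0 lower in the Holstein bulls (all probes 23.9% and 24.4%). The log2 of the summed signal of the list, in which CSF1R was the brightest, was 11.24 to 11.88 in the positive, 10.98 to 12.52 in the cross-breed and 10.99 to 14.18 in the Holstein animals. The part of leukocytes in the inducible subunits was not tested.

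The ATPase ring of the regulatory particle, PSMC1 to PSMC6, had 0 calls of 6 in the positive and 1 of 6 in the Holstein animals, where 51.7% and 48.4% of all probes were called. None of its 6 probes (0 higher and 0 lower) passed the test in the positive animals, with changes from -0.40 for PSMC4 (SE 0.18) to 0.23 for PSMC6 (SE 0.13). Under 1 of 20 alternatives each, PSMC2 and PSMC5 did pass there (lowest adjusted p 0.0485 and 0.0369). Against the cross-breed bulls 1 passed in the Holstein bulls, PSMC5, with a change of -0.27 (SE 0.09, adjusted p 0.0216). PSMC5 ran from 14.88 through 15.19 to 15.26 in the Holstein bulls and from 15.24 to 15.62 in the cross-breed bulls, an overlap of a few hundredths, and the sign turned to 0.025 when arrays were scaled by their 75th percentile. With normexp the call was lost (adjusted p 0.126). Without K7 or K8 the adjusted p was 0.0596 or 0.0811.

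Of the non-ATPase subunits, which have the most probes, 6 of 12 were lower and 0 higher in the positive animals (26.2% and 25.5% of all probes), and 6 were lower and 2 higher in the Holstein bulls (24.4% and 23.9%). The mean log2 signal over the 12 probes was 12.93, 12.87, 12.92 and 12.97 in S21, S54, S56 and S57 and 13.08, 13.31, 13.23, 13.33 and 13.11 in K7, K8, K10, K11 and K12, so the groups did not overlap on this average either. The Holstein bulls, at 12.86 to 13.10, overlapped with K7 only.

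PSMD4 is a receptor for ubiquitin chains. It measured 13.03, 13.50, 14.26 and 14.17 in the positive animals and 14.73, 14.94, 14.76, 15.06 and 14.74 in the cross-breed bulls, a wide spread in the first group and a narrow band above it in the second. The change was -1.11 (SE 0.25, adjusted p 0.00373), or 2.15-fold lower. The Holstein bulls ran from 12.84 through 14.02 to 14.18, all below the cross-breed bulls, a change of -1.08 (SE 0.21, adjusted p 0.000368).

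PSMD14 is the metalloprotease that removes ubiquitin from the substrate before it enters the core. It measured 12.02, 11.73, 11.49 and 11.77 in the positive and 12.17, 12.86, 12.80, 12.86 and 12.57 in the cross-breed animals, without overlap, although S21 and K7 came close. The change was -0.90 (SE 0.18, adjusted p 0.00238). The call was lost with pairwise cyclic loess, at -0.45 and adjusted p 0.0563, and in the common fit, at adjusted p 0.069. Holstein bulls, from 11.88 through 12.18 to 12.45, changed by -0.46 (SE 0.13, adjusted p 0.00917), which was lost with 75th percentile scaling (adjusted p 0.0507) and in the common fit (0.234).

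PSMD7, the structural partner of PSMD14, measured 13.67, 13.82, 13.68 and 13.73 in the positive animals and 14.26, 14.58, 14.25, 14.53 and 14.20 in the cross-breed bulls. The groups were well apart, and the change was -0.64 (SE 0.14, adjusted p 0.00325), with -0.57 (SE 0.10, adjusted p 0.000174) in the Holstein bulls. The scaffold subunits PSMD1 (-0.36, SE 0.13) and PSMD3 (-0.39, SE 0.14) and the lid subunit PSMD6 (-0.49, SE 0.14) were also lower in the positive animals, but these calls were weak. PSMD6 and PSMD1 turned to 0.0085 and 0.060 with pairwise cyclic loess, and all 3 calls were lost with 75th percentile scaling and in the common fit. PSMD3 was then -0.13 (adjusted p 0.54) and -0.39 (0.107), and it was also lost with quantile normalization (0.119), pairwise cyclic loess (0.0956) and normexp (-0.21, adjusted p 0.28). PSMD1 too was lost with quantile normalization (adjusted p 0.119) and normexp (0.213), and with the series matrix values (0.0594). PSMD6 did not pass without S56 (adjusted p 0.0501), PSMD1 without any single array but K11 (0.0511 to 0.108), and PSMD3 without S21, S54 or any cross-breed bull but K10 (0.0562 to 0.131). PSMD1, PSMD2 and PSMD3 were lower in the Holstein bulls, by changes of -0.31, -0.34 and -0.42, while PSMD13 (0.32, SE 0.09) and a PSMD12 probe (0.39, SE 0.14) were higher. With 75th percentile scaling PSMD1, PSMD2 and PSMD3 were -0.17, -0.063 and -0.19 there (adjusted p 0.225, 0.687 and 0.225) and no longer passed. PSMD13 did not pass with pairwise cyclic loess (0.16, adjusted p 0.228), and PSMD12 did not with 75th percentile scaling (0.0679) or in the common fit (0.119). Normexp and the series matrix values also ended the PSMD2 call (adjusted p 0.228 and 0.0673). Leaving out K7 and K8 together ended the Holstein calls of PSMD1, PSMD2, PSMD3 and PSMD13 (adjusted p 0.0716, 0.128, 0.0593 and 0.0966). PSMD2 did not pass without K8, K10 or K11 (adjusted p 0.0641 to 0.135), nor PSMD12 without K7, K11 or K12 (0.06 to 0.105). PSMD13, PSMD2 and PSMD12 (A_73_116649) were not called in the positive animals. They did pass there under 6, 2 and 3 of 20 alternatives (lowest adjusted p 0.0131, 0.0247 and 0.022).

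The activators open the core particle without ATP. PSME1 and PSME2 form the cytosolic activator ring that is raised by interferon, PSME3 forms its nuclear relative, PSME4 is a large nuclear activator and PSMF1 is an inhibitor of the core. PSME2 measured 12.76, 12.84, 12.79 and 12.92 in the positive and 13.58, 13.39, 13.87, 13.47 and 13.28 in the cross-breed animals, a change of -0.69 (SE 0.15, adjusted p 0.00319) without overlap. Pairwise cyclic loess ended this call, at -0.19 and adjusted p 0.333. The Holstein change of -0.29 (SE 0.12) did not pass (adjusted p 0.0532), but it did under 3 of 16 alternatives (lowest adjusted p 0.0168).

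The 2 PSME1 probes disagreed in sign. The brighter one (A_73_101826) measured 12.22, 12.36, 12.09 and 12.36 in the positive animals against 13.37, 12.96, 13.21, 13.12 and 12.73 in the cross-breed bulls, a change of -0.82 (SE 0.16, adjusted p 0.00169). The dimmer one (A_73_111174) measured 7.75, 6.53, 7.04 and 6.96 against 5.26, 4.60, 4.88 (K10), 4.75 and 4.57, a change of 2.26 (SE 0.24, adjusted p 4.6e-05), or 4.78-fold, and with normexp 0.99. Neither pair of groups overlapped, and pairwise cyclic loess ended the first call, at -0.34 and adjusted p 0.105. Holstein bulls gave the same signs. The changes there were -1.05 (SE 0.19, adjusted p 0.000272) and 2.33 (SE 0.25, adjusted p 1.05e-06), the latter 5.02-fold, or 1.23 on the log2 scale with normexp. Since the probes contradict each other, no direction can be given for PSME1.

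PSME4 was lower in the Holstein bulls, which ran from 11.91 through 12.24 to 12.69 and all lay below the cross-breed bulls at 12.82 to 13.05. The change was -0.64 (SE 0.13, adjusted p 0.000798), and that of -0.33 (SE 0.14) in the positive animals did not pass (adjusted p 0.0616). PSME3 was higher in the Holstein bulls on its brighter probe (A_73_109129), by 0.44 (SE 0.11, adjusted p 0.00354), and its dimmer probe changed by 0.17 (SE 0.20, adjusted p 0.516). PSMF1 was higher in the Holstein bulls by 0.38 (SE 0.14, adjusted p 0.0342), but not without K8, K10 or K11 (adjusted p 0.0672 to 0.0902), with pairwise cyclic loess (0.151) or in the common fit (0.194). Neither PSME3 nor PSMF1 passed in the positive animals. Under 1 alternative each, PSME3 did pass there, lower on A_73_104476 (lowest adjusted p 0.0254) and higher on A_73_109129 (0.000962).

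Of the assembly factors, POMP is the maturation chaperone of the core and PSMD5, PSMD9 and PSMD10 are chaperones of the regulatory particle base. Of the 4 probes 0 passed the test in the positive and 1 in the Holstein animals, where 51.7% and 48.4% of all probes did. PSMD5 was lower in the Holstein bulls, at 9.22 through 9.71 to 10.18 against 10.01, 10.72, 10.58, 10.99 and 10.45, with an overlap at K7 and a change of -0.85 (SE 0.16, adjusted p 0.00028). POMP changed by -0.09 (SE 0.12) and 0.23 (SE 0.12), neither past the threshold. It did pass in the Holstein bulls under 2 of 16 alternatives (lowest adjusted p 0.0123). In the positive animals PSMD10 and PSMD5 did pass under 3 of 20 alternatives each (lowest adjusted p 0.00353 and 0.0163). For PSMD9 the lowest adjusted p under any alternative was 0.0302 in the positive and 0.0384 in the Holstein animals. ECPAS, the ECM29 adaptor that holds core and regulatory particle together, was lower in both, by changes of -0.63 (SE 0.20, adjusted p 0.0224) and -0.83 (SE 0.27, adjusted p 0.0174), with overlapping ranges. Leaving out S21 or S56 ended the first of these calls, at adjusted p 0.0684 and 0.0676, and leaving out K10 ended the second, at 0.0503. The first was lost too with slide or scan day as a random block (0.0531 and 0.0651), with 75th percentile scaling, with pairwise cyclic loess and in the common fit.

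The third comparison was between the positive and the unknown animals, all from the slaughterhouse. No proteasome probe was called in either direction by limma, where 0.0489% of all probes, 8 of 16354, were called, all lower. At an unadjusted p under 0.05, 3 proteasome probes were higher and 1 was lower, against 11.8% and 12% of all probes (23.8% together). The log2 changes ran from -1.0 for PSMA8 to 1.04 for PSMB10, with a median of -0.06 against -0.05 over all probes. PSMB10 was 12.83 to 13.01 in the positive animals while the unknown ones spread from 10.17 in animal 265 of set A to 13.49 in animal 78 of set B, and the change of 1.04 (SE 0.56) had an adjusted p of 0.246. PSMB7 changed by 0.38 (SE 0.16, adjusted p 0.168).

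The positive arrays lay on the same slides as the unknown animals 50, 78, 79 and 81, all of set B. Within those slides no probe of 16354 was called, and 1873 had an unadjusted p under 0.05. Of the proteasome probes 2 were then higher and 2 lower at that level, the lower ones being PSMB9 (-0.92, SE 0.31) and PSMB8 (-0.68, SE 0.29). The higher ones were the PSMA7 probe A_73_120240 (0.53, SE 0.18) and PSMD14, which turned from -0.58 against all unknown animals to 0.37 (SE 0.14). Within these slides PSMB10 turned as well, to -0.32 (SE 0.14, adjusted p 0.448). Animal 78 had the highest PSMB8 (11.50), PSMB9 (12.98) and PSMB10 (13.49) of set B.

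Within the unknown animals the sets B and A differed in several proteasome genes. For 3 of 49 probes (6.12%) every animal of set B lay above every animal of set A, where this held for 6.21% of all probes, and for 8 (16.3%) every animal of set B lay below, where this held for 5.49% (11.7% of all probes in either direction). The median difference, set B minus set A, was -0.26 over the proteasome probes and -0.05 over all probes, and 34 of the 49 probes had the lower mean in set B. By particle the median was -0.72 for the alpha ring, -0.63 for the assembly factors, -0.34 for the non-ATPase subunits, -0.25 for the ATPase ring, -0.14 for the beta ring and also for the activators and inhibitor, and 0.49 for the inducible subunits. The sets share no slide or scan day, so set and batch cannot be told apart. Without the 5 set B arrays of low spike-in signal, 4 probes lay wholly above and 11 wholly below, against 10.1% and 9.7% of all probes at this smaller number of animals. With 75th percentile scaling the median difference was -0.11 (all probes -0.03), 30 probes had the lower mean and 4 lay wholly below, where 3.72% of all probes did. Pairwise cyclic loess gave a median of -0.30 (all probes -0.10), with 10 wholly below, where 3.25% of all probes were. The muscle fibre genes differed between the sets as well. Of 18 muscle fibre probes 5 lay wholly above in set B and 0 wholly below, where 6.21% and 5.49% of all probes did. The 5 included the skeletal actin gene ACTA1 (2.02) and the slow-fibre genes MYBPC1 (2.40) and TNNT1 (2.36), while the fast-fibre genes MYBPC2 and TNNT3, at -2.72 and -2.55, had overlapping ranges, all 5 of these genes being named after their values were seen. The log2 of the summed signal of the list was 20.27 to 21.68 in set B and 20.12 to 20.68 in set A, and the part of fibre type in the proteasome differences was not tested.

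The 3 probes without overlap and higher in set B were PSMB10, PSMA3 and PSMB3. PSMB10 ran from 12.61 through 13.03 to 13.49 in set B and from 10.17 through 10.79 to 11.52 in set A, a gap of over 1 on the log2 scale between the sets and a difference of means of 2.16. PSMA3 ran from 11.22 through 11.50 to 12.02 and from 9.36 through 10.26 to 10.88, a difference of 1.32. PSMB3, a structural beta subunit, differed by 0.61. Probes with overlapping ranges, such as the dimmer PSME1 probe (1.0), PSMC3 (0.77) and a PSMD12 probe (A_73_116649, 0.68), had larger differences than PSMB3.

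Of the 8 lower without overlap, the first was PSMD14, at 11.28 through 11.58 to 11.95 in set B and 12.21 through 13.05 to 13.55 in set A, a difference of -1.38. POMP followed, at 13.61 through 13.78 to 13.92 and 14.33 through 14.86 to 15.08, a difference of -1.05. The alpha subunits PSMA5, PSMA1 and PSMA6 differed by -0.96, -0.93 and -0.92. PSMD6, PSMD7 and PSMB4 completed the group, at -0.68, -0.66 and -0.35. PSMA8 was also dimmer in set B, where only 2 of the 10 arrays were well above background, and its ranges overlapped.

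**Figure D4:**
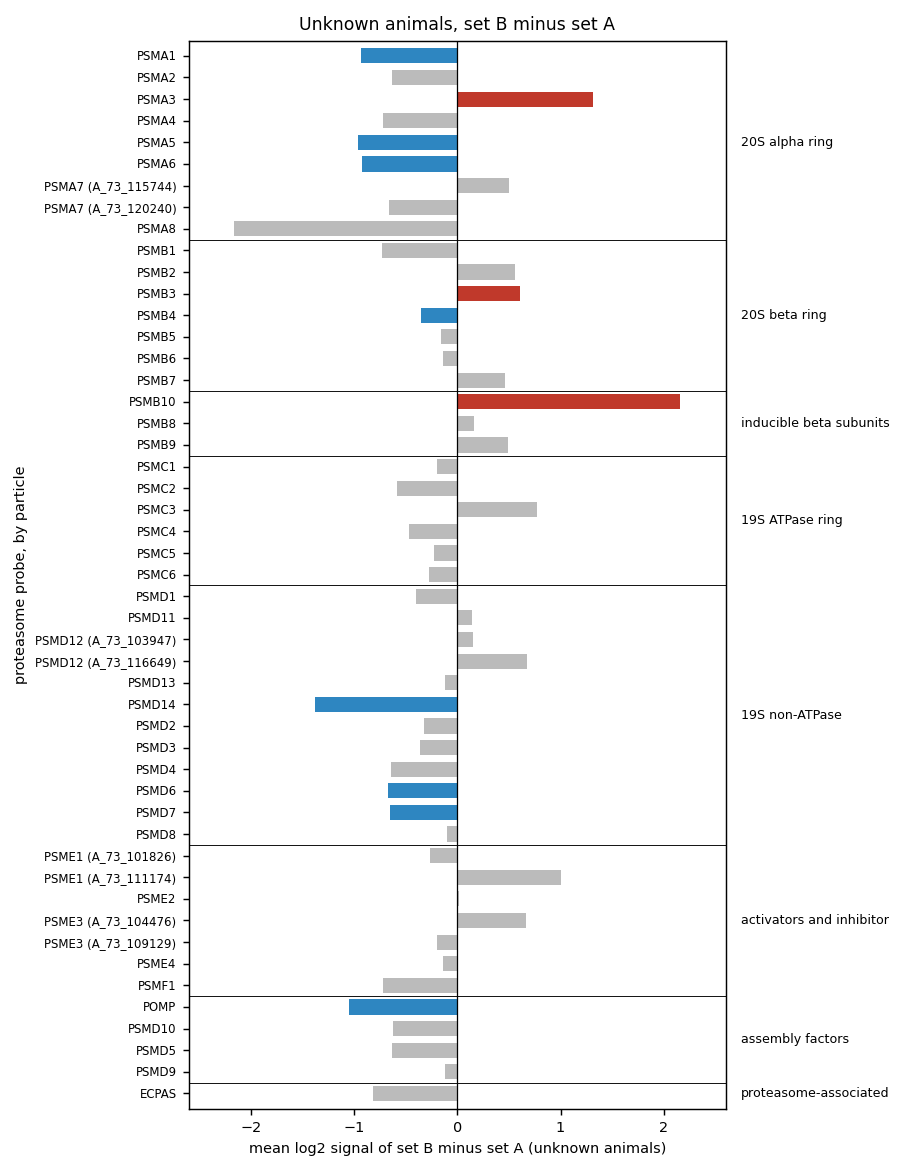
Mean log2 signal of the 10 unknown animals of set B minus that of the 11 of set A for each proteasome probe (bars), coloured red or blue where the ranges of the sets do not overlap. PSMB10 at 2.16 and PSMD14 at -1.38 are the longest of the coloured bars, and 34 of 49 bars point to the left.

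The positions of single animals differed by set. In set A animal 58 had the lowest signal for 18 of the 49 probes and animal 263 the highest for 15, and in set B animal 52 had the highest for 18. Among the positive animals S56 was lowest for 26 probes. K7 and K12 were lowest for 19 and 15 probes among the cross-breed bulls, and among the Holstein bulls C24 was highest for 14 and C41 lowest for 13. From these counts alone, a shift of a whole array and one of the proteasome probes cannot be told apart.

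Genes that act around the proteasome were examined by list, with the counts given over the probes tested. Beside these counts stand the shares of all probes, 25.5% higher and 26.2% lower in the positive and 23.9% higher and 24.4% lower in the Holstein animals. Of the transcription and shuttling factors, 5 of 19 were higher and 8 lower in the positive than in the cross-breed animals, and 4 were higher and 10 lower in the Holstein bulls. NFE2L1, the transcription factor that raises proteasome genes when proteasome activity is short, measured 11.95, 11.70, 12.75 and 12.30 in the positive and 9.29, 9.60, 8.99, 10.54 and 9.24 in the cross-breed animals. All positive animals were higher, by a change of 2.65 (SE 0.32, adjusted p 9.27e-05), and in the Holstein bulls NFE2L1 changed by 1.5 (SE 0.21, adjusted p 2.29e-05). DDI2, the protease known to activate NFE2L1, was lower, by changes of -1.53 (SE 0.16, adjusted p 4.51e-05) and -1.42 (SE 0.14, adjusted p 2.75e-07). VCP, the segregase that extracts ubiquitinated proteins, measured 12.34, 12.56, 12.94 and 12.82 against 13.61, 13.56, 13.49, 13.67 and 13.77, a change of -0.96 (SE 0.16, adjusted p 0.000578), with -1.14 (SE 0.17) in the Holstein bulls. NFYA, a subunit of a promoter-binding factor, was higher in both, by 0.62 (SE 0.14) and 1.03 (SE 0.15), and a probe of the shuttle factor UBQLN4 (A_73_105399) was lower in both, by changes of -0.98 (SE 0.18) and -1.20 (SE 0.21), while its other probe changed by 0.48 (SE 0.13) and -0.33 (SE 0.11).

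Of the ubiquitin genes and E1 activating enzymes, 3 of 8 were higher and 3 lower in the positive animals and 2 were higher and 2 lower in the Holstein bulls. The polyubiquitin gene UBB measured 11.33, 11.62, 11.38 and 11.53 in the positive animals and 10.16, 9.82, 10.11, 10.86 and 10.57 in the cross-breed bulls, a change of 1.16 (SE 0.21, adjusted p 0.00115) without overlap. RPS27A, a ubiquitin fused to a ribosomal protein, changed by -2.34 (SE 0.27) with 3 of 4 positive arrays well above background. UBB was also higher in the Holstein bulls, by 1.22 (SE 0.14, adjusted p 2.89e-06), and RPS27A was lower there, by a change of -1.14 (SE 0.30). The E1 gene UBA6 was lower in the positive animals (-0.80, SE 0.23). The main E1 gene, UBA1, had probes of opposite sign, A_73_107201 with 0.63 (SE 0.16, adjusted p 0.00758) and A_73_115287 with -0.34 (SE 0.15, adjusted p 0.0864) in the positive animals, and 0.68 (SE 0.28, adjusted p 0.0511) and -0.88 (SE 0.18, adjusted p 0.000693) in the Holstein bulls. NEDD8, a ubiquitin-like modifier, was higher in the Holstein bulls (0.29, SE 0.11).

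Of the E2 conjugating enzymes, 6 of 35 were higher and 11 lower in the positive animals, and 8 were higher and 10 lower in the Holstein bulls. UBE2W was higher in both, by 1.35 (SE 0.19) and 1.23 (SE 0.20) on its brighter probe A_73_105666, as was UBE2L6, by 0.95 (SE 0.28) and 1.09 (SE 0.17). UBE2K was lower in the Holstein bulls, with a change of -1.58 (SE 0.26) and 4 of 13 arrays well above background, and so was UBE2Z, with -0.98 (SE 0.13). UBE2J1 (A_73_120782) and UBE2Q1 were lower in the positive animals (adjusted p 0.00175 and 0.00292) and well above background on 3 and 2 of the 4 positive arrays. So near to background the size of the change cannot be read for either, nor for UBE2K.

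Of the ubiquitin ligases linked to muscle wasting, 1 of 18 was higher and 9 lower in the positive animals, and 2 were higher and 6 lower in the Holstein bulls. TRIM63, which encodes the myofibril ligase MuRF1, measured 13.51, 14.04, 13.70 and 13.38 in the positive animals and 14.61, 14.94, 14.61, 14.78 and 14.72 in the cross-breed bulls. Every positive animal was lower, with a change of -1.07 (SE 0.16, adjusted p 0.000382), whereas in the Holstein bulls, from 14.64 through 15.52 to 16.50, the change was 0.99 (SE 0.29, adjusted p 0.00956). FBXO32, which encodes atrogin-1, measured 14.56, 14.91, 14.58 and 14.70 against 14.78, 15.11, 14.11, 14.69 and 14.96 and did not pass the test in either comparison, with changes of -0.04 (adjusted p 0.874) and -0.40 (adjusted p 0.13). NEDD4, a membrane-associated ligase, was lower on both probes tested in both comparisons, with changes from -3.56 to -1.75. FBXO40, a muscle-specific ligase subunit, was lower in the positive animals (-1.39, SE 0.24), and TRIM54, a relative of TRIM63, was lower in the Holstein bulls (-1.14, SE 0.29, A_73_102480). TRAF6 was higher in the Holstein bulls (0.52, SE 0.15). The chaperone-linked ligase STUB1 was higher in the positive animals (0.45, SE 0.17) on its dimmer probe. That probe was well above background on 3 of 5 cross-breed arrays, and the brighter STUB1 probe (A_73_107800) was not called higher there.

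Of the deubiquitinases, 0 of 7 were higher in either comparison, and 3 and 4 were lower. USP14, which trims ubiquitin on the regulatory particle, was lower in the Holstein bulls by a change of -0.50 (SE 0.09, adjusted p 0.000134), and in the positive animals its change of -0.36 (SE 0.14) just missed the threshold (adjusted p 0.0512). UCHL1 was lower in both, by changes of -3.03 (SE 0.62) and -2.34 (SE 0.55), with 3 of 4 positive arrays well above background, and USP7 by -0.69 (SE 0.19) and -0.64 (SE 0.14). Against the unknown animals 0 probes of any of these lists were called in the positive animals, with changes of 0.84 for NFE2L1 (adjusted p 0.301), -0.79 for TRIM63 (adjusted p 0.142), 0.94 for FBXO32 (adjusted p 0.199) and -0.15 for USP14 (adjusted p 0.567).

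**Figure D5:**
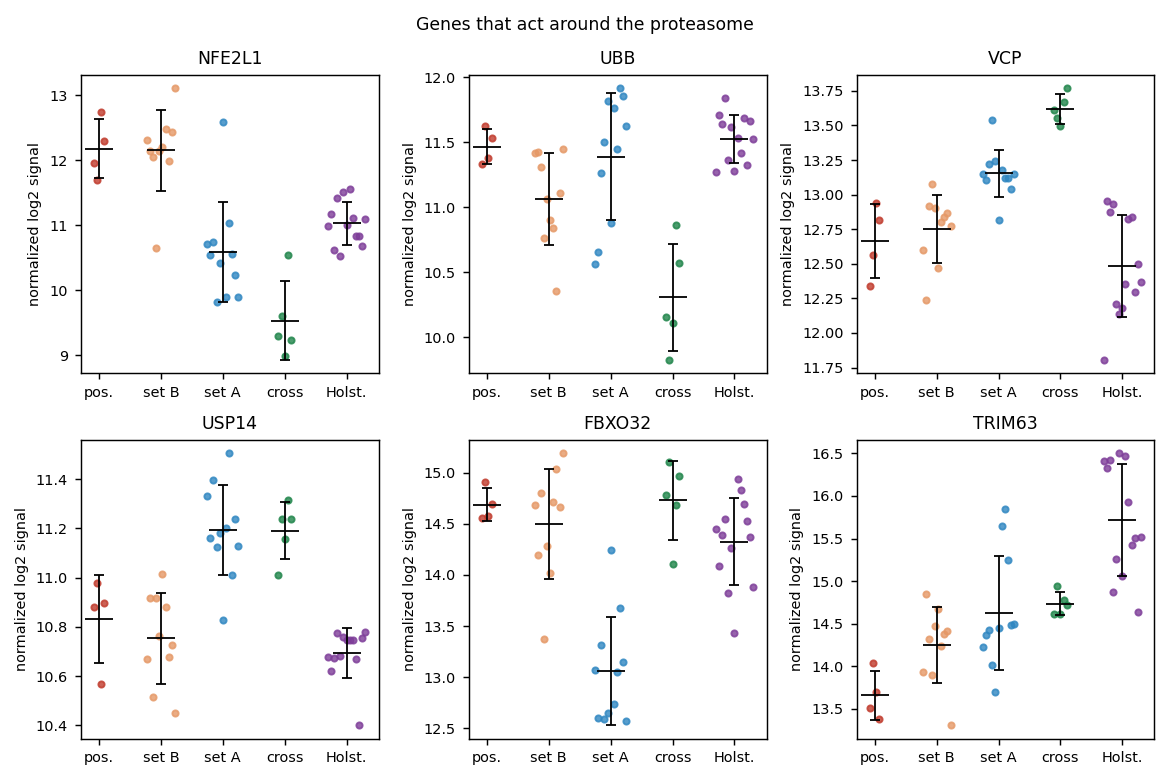
Normalized log2 signal of 6 genes that act around the proteasome on each array (points) by set, with the mean and SD of the set (bars); each panel has its own vertical axis. NFE2L1 and UBB have their lowest means in the cross-breed bulls, FBXO32 in set A, and the mean of TRIM63 is lowest in the positive animals and highest in the Holstein bulls.

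Across sets B and A, 1 of 35 E2 probes lay wholly above and 7 wholly below in set B, and of the 19 transcription and shuttling probes 1 lay above and 4 below, where 6.21% of all probes lay above and 5.49% below. None of the 18 muscle ligase probes was free of overlap. FBXO32 ran from 13.37 through 14.67 to 15.19 in set B and from 12.57 through 13.05 to 14.25 in set A, and TRIM63 from 13.31 through 14.35 to 14.85 and from 13.70 through 14.45 to 15.85. USP14 was 10.45 to 11.01 in set B and 10.83 to 11.50 in set A. UBB overlapped widely, at 10.36 to 11.45 and 10.56 to 11.92.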

How the data were processed

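Biceps brachii RNA of 43 cattle was measured on 1 Agilent array each. The authors deposited scanner files in which Feature Extraction combined 2 scans, subtracted background and detrended each spot's intensity (gProcessedSignal); per the file headers the version was 9.5.1.1, but 9.1.3.1 for K7 and K8 and 9.5.3.1 for K10, K11 and K12. The authors also deposited a matrix of intensity values that they had normalized between arrays, used here as an alternative.

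Spots marked as outliers were left out and spots of a probe averaged. As in the study's methods, log2 gProcessedSignal was normalized by cyclic loess over all arrays (R 4.3.3, limma 3.58.1) and probes below 4 on at least 30 of 43 arrays were dropped, which left 16354 of 21475 probes, a number that differs from the study's. Groups came from the status and animal labels and the study's methods. Comparisons used lmFit and eBayes on the groups compared, with Benjamini-Hochberg adjustment over 16354 probes. The fitting was tested on simulated data with independent noise and no batch effects, so that test says nothing about slide, scan day or scanner. The p-values weigh a group difference against the spread between animals of a group, 1 array each, whose number limits the precision. Where group and batch cannot be told apart, that difference may include batch.

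The member genes and lists were chosen with earlier results of these data known. Symbols of the proteasome probes came from the accession (31 probes), the Entrez number (14) or the description (4), through RefSeq gene tables. The lists were matched by these updated symbols, since many probes carry only an accession as a gene name. Named members are all catalytic, activator and inhibitor genes, POMP and, for each comparison, up to 4 called probes in each direction with the largest change; further members were named when their particle was described, after their values were seen. Pathway genes named are the 2 with the largest called change in each direction and list, with FBXO32, TRIM63, USP14 and NFE2L1 always; VCP, beyond that rule, was named after its values were seen, some items are not reported here, and an interferon gene whose probes map to different loci was not named. Alternatives were other normalizations, background correction, filters, fits, slide or scan day as a random block, and leaving out arrays.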

Additional observations from a re-analysis of the deposited data

Results flagged for a closer look

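PSMA1, an alpha subunit of the core particle, was 13.33 in the cross-breed bull K10, while the other 4 cross-breed bulls were at 12.71 to 12.85. The gap to the nearest of them took up 0.765 of the group's range, which put this sample beyond the critical value of Dixon's test for 5 samples. It was the only such value among 98 group and probe combinations examined, where chance alone gives about 1 in 20.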

How the results depend on the processing

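Of 14 proteasome probes lower in the positive than in the cross-breed animals, the count fell to 9 with 75th percentile scaling and to 6 with all 43 arrays in a common fit, where the share of all probes called lower fell from 26.2% to 18.1% and 15.4%. With pairwise cyclic loess there were 11 higher (in place of 4) and 13 lower, only 6 of them among the 14 (all probes 21.4% and 36.8%). The 10 higher in the Holstein bulls became 5 in the common fit and 6 without K7 and K8, where the share of all probes called higher fell from 23.9% to 19.1% and 17.7%. Leaving out 1 positive or cross-breed array at a time gave 3 to 5 higher and 11 to 14 lower probes for the positive animals. For the Holstein bulls only the cross-breed arrays were left out in turn, which gave 7 to 8 and 14 to 18. Against the unknown animals, leaving out the positive arrays in turn gave 0. The 8 probes of set B wholly below set A became 4 with 75th percentile scaling and 5 with normexp correction, and the share of all probes fell from 5.49% to 3.72% and 3.85%. They became 10 with pairwise cyclic loess (all probes 3.25%), 6 with quantile normalization (5.94%) and 7 with the series matrix values (5.39%).

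Slide or scan day as a random block ended the calls of ECPAS, PSMD1, PSMD3 and PSMA7 (A_73_115744) in the positive animals and of PSMA7 (A_73_115744) and PSMD2 in the Holstein bulls, scan day also that of PSMF1 there. Leaving out K7 and K8 together ended the calls of PSMD1 and PSMD3 in the positive animals. In the Holstein bulls it ended those of PSMA1, PSMA7 (A_73_115744), PSMC5, PSMD1, PSMD2, PSMD3, PSMD13 and PSMF1. Under every alternative run, the calls held for PSMB7, PSME1 (A_73_111174), PSMA8, PSMB1, PSMD4 and PSMD7 in the positive animals (6 of 18), and for 4 of 10 higher and 8 of 16 lower probes in the Holstein bulls, among them PSMA3, PSMB7, PSMB1, PSMB8 and PSMD4. Of these probes PSME1 (A_73_111174), PSMA8 and PSMB1 were not well above background on all 43 arrays. The median change of all probes was 0.11, -0.13 and -0.26 with percentile scaling, quantile normalization and pairwise loess, where 4768 and 2967, 3775 and 5154, and 3507 and 6023 of all probes were higher and lower in the positive animals, against 4169 and 4289 as reported. For the Holstein bulls percentile scaling moved it to -0.12, with 2994 and 4787 calls against 3910 and 3998. Against the unknown animals the common fit called 680 and 679 of all probes, in place of 0 and 8, and none (0) of the proteasome probes.

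Over all 49 probes and alternatives the sign turned at least once for 22 probes in the positive and 10 in the Holstein animals, 2 (PSMD1 and PSMD6) and 1 (PSMC5) of them called, and for 35 against the unknown animals, where none (0) was called. For the members called and for the catalytic subunits, activators, PSMF1 and POMP, the signs that turned in the comparisons with the cross-breed bulls follow, and the cause was not tested. In the positive animals, percentile scaling gave 0.15 for POMP, 0.20 for PSMB5 and 0.023 for PSME3 (A_73_104476), quantile normalization 0.036 for PSMB5, pairwise loess 0.12 for POMP, 0.13 for PSMB5, 0.060 for PSMD1, 0.0085 for PSMD6, 0.16 for PSME4 and -0.22 for PSMF1, normexp 0.038 for POMP and 0.14 for PSMB5, and leaving out K7 and K8 -0.036 for PSMB6. In the Holstein bulls, pairwise loess gave -0.11 for PSMB5 and -0.019 for PSMB6, percentile scaling 0.025 for PSMC5, and percentile scaling, quantile normalization, normexp and leaving out K7 and K8 gave -0.21, -0.011, -0.033 and -0.11 for PSME3 (A_73_104476). Against the unknown animals PSMB10 was -0.024 with slide and -0.13 with scan day as a random block, and -0.32 within shared slides. Of the catalytic subunits, activators, PSMF1 and POMP, the sign against the unknown animals also turned for PSME4 under 11 alternatives, PSMB8 under 7, PSME2 under 5, PSMB5 under 4, PSMF1 under 3, POMP and PSME1 (A_73_101826) under 2, and PSMB9 and PSME3 (A_73_109129) under 1, from changes of -0.49 (POMP) to 0.082 (PSMB8) that were not called. Among the other probes called against the cross-breed bulls, it turned for PSMA7 (A_73_115744) under 6 alternatives, PSMC5 under 5 and PSMB1 under 4. It also turned for PSMA1, PSMA5, PSMD4, PSMD5, PSMD6 and PSMD14 under 3, PSMD3, PSMD13 and ECPAS under 2, and PSMD2 under 1. Probes near background (PSMA8, PSMB1) limit how low a level could be read. No paired analysis was possible because the groups compared share no animal numbers.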

Other observations

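Autophagy, the other main route of protein breakdown in muscle, was followed through 27 probes. In the positive animals 6 were higher and 6 lower than in the cross-breed bulls, and in the Holstein bulls the counts were also 6 and 6, where 25.5% and 26.2% of all probes were higher and lower in the positive and 23.9% and 24.4% in the Holstein animals. Of the ubiquitin-like genes of the autophagosome membrane, GABARAP, GABARAPL1 and MAP1LC3A were higher in both, while GABARAPL2 and MAP1LC3B passed in neither. GABARAPL1 changed by 1.42 (SE 0.22, limma adjusted p 0.000396) and 1.1 (SE 0.17), and GABARAP by 1.0 (SE 0.12) and 1.34 (SE 0.11, adjusted p 7.34e-08). Lower in both were BNIP3, a mitophagy receptor, on both its probes (changes from -1.42 to -0.97), and ATG4A, a protease that processes the GABARAP family (-1.69, SE 0.21, and -1.20, SE 0.16). SQSTM1, the receptor that hands ubiquitinated cargo to autophagy and is also counted among the shuttling factors, was lower in both, by changes of -0.67 (SE 0.21) and -0.43 (SE 0.15). A probe of LAMP2, a lysosomal membrane protein, was higher in both (A_73_106010, 1.34, SE 0.19, and 1.07, SE 0.15), and CTSL, a lysosomal protease, was higher in the Holstein bulls (1.18, SE 0.36) with 10 of 13 of their arrays and 1 of 5 cross-breed arrays well above background. SQSTM1, MAP1LC3A, GABARAPL2, MAP1LC3B and the genes set apart between sets B and A were named after their values were seen, and both comparisons use the same cross-breed bulls. Across the unknown animals 4 of the 27 probes lay wholly above and 3 wholly below in set B, where 6.21% and 5.49% of all probes did, and 17 had the lower mean. Those above were ATG16L1, GABARAP and probes of ATG5 and CTSD, and those below were BECN1, LAMP1 and a probe of LAMP2. GABARAP ran from 14.75 through 15.12 to 15.24 in set B and from 13.10 through 13.78 to 13.93 in set A, without overlap, and ATG16L1 from 7.50 through 8.22 to 8.50 and from 3.5 through 4.98 to 5.84, also without overlap.

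Markers of other cells were counted beside the shares of all probes, 25.5% higher and 26.2% lower in the positive and 23.9% and 24.4% in the Holstein animals. Of 12 adipocyte probes 7 were higher and 1 lower in the positive than in the cross-breed animals and 7 and 0 in the Holstein bulls, with FABP4 changing by 5.23 (SE 0.75) and 5.03 (SE 0.73). Of 8 endothelial probes 6 and 1 were higher and 0 lower. Of 10 fibroblast probes 1 was higher and 4 were lower in the positive animals, among them COL1A1 (-2.35, SE 0.51), and 7 were higher in the Holstein bulls. Of 2 erythroid probes 1, HBB, was higher in the positive animals by 1.0 (SE 0.20). This HBB probe was dim, with means of 5.34 in set B and 4.38 in set A, not far above the filter limit of 4.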
